A study of Mus musculus with 12 samples.

Results

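The BCL2 family decides whether a cell keeps its mitochondrial outer membrane intact. Pro-survival members hold the pore-forming effectors in check, and BH3-only members release or activate those effectors when a cell is stressed. In macrophages, the A1 genes are known as targets of NF-κB, and MCL1 is known as a short-lived protein on which myeloid cells depend. The 10 genes described here were taken by name from a table of 43278 gene symbols. They are the pro-survival genes Bcl2, Bcl2l1, Bcl2a1a, Bcl2a1b, Bcl2a1d and Mcl1, the effector Bax, and the BH3-only genes Bcl2l11 (BIM), Bbc3 (PUMA) and Pmaip1 (NOXA).

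RNA was measured in peritoneal macrophages (PMφs) of wild-type C57BL/6J mice aged 8 to 12 weeks, drawn into the peritoneal cavity with 4% aged thioglycolate and collected 4 days later. Males and females of 1 or 2 litters were pooled and the pool was split among the 4 groups, so a library stands for a share of a pool and not for an animal. After 18 h in culture, control PMφs received neither agent, the oxLDL group received human medium oxidized low-density lipoprotein at 100 µg/ml for 24 h, the LPS group received ultrapure LPS at 10 ng/ml, and the oxLDL+LPS group received oxLDL followed by LPS. Each group held 3 libraries, numbered 1 to 3, and the study's methods give only upper limits of some hours for LPS, not the time for these libraries.

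Values are called normalized counts here, since they behave as read counts per gene divided by 1 factor per library and rounded. The values summed to between 17152972 and 17709731 in control libraries, 17440329 and 17444102 in oxLDL libraries, 22590678 and 26384551 in LPS libraries, and 22071853 and 23346854 in oxLDL+LPS libraries. They imply between 16725738 and 26177463 reads on genes per library. All 7 macrophage markers were above 10 in every library, Lyz2 between 157225 and 215646, and the defining genes of neutrophils, Ly6g and S100a9, were at 1 or below. The defining T cell genes Cd3d, Cd3e, Cd3g and Trac did not exceed 3, and the B cell genes Cd79a, Cd79b and Ms4a1 did not exceed 28. Genes of mesothelial cells and fibroblasts summed to between 2775 and 17135. In every group number 1 was highest and number 3 lowest, so the replicate numbers differed in them. Bulk RNA cannot tell a smaller share of a cell type from less RNA per cell.

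The 3 A1 genes are near-identical copies on chromosome 9 of GRCm38, and the first 60 bases of their coding sequences are shown because the split of the A1 count among the copies depends on such differences. Capitals mark the 6 bases of this stretch that differ among the copies.
Bcl2a1a, chr9:88957051-88957110, plus strand: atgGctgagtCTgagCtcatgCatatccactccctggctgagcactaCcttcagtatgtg
Bcl2a1b, chr9:89199360-89199419, plus strand: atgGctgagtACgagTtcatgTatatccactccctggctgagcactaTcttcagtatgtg
Bcl2a1d, chr9:88731660-88731719, minus strand: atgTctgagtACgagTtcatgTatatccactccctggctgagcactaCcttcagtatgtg
Over the 519 coding bases, Bcl2a1a and Bcl2a1b differed at 11 positions, Bcl2a1a and Bcl2a1d at 7, and Bcl2a1b and Bcl2a1d at 6. Of all stretches of 150 bases in their transcripts, the length of 1 sequenced read, 71.8% for Bcl2a1a, 85.8% for Bcl2a1b and 69.7% for Bcl2a1d occurred in no other copy. How reads shared by the copies were counted is not stated, so the split among the 3 genes and their summed count are uncertain. Bcl2a1b also shares 401 exonic bases with Gm29094, a gene on the same strand whose value did not exceed 15. How reads on those bases were counted is not stated either. Another copy, Bcl2a1c, did not exceed 18 in any library and is not a member here.

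LPS against control asks how the family stood after a Toll-like receptor stimulus. Of the 10 genes, 6 were higher and 3 lower in LPS-treated than in control PMφs, and Pmaip1 did not pass the test. The 3 A1 genes rose 5.43- to 25.1-fold, whereas the BH3-only genes Bcl2l11 and Bbc3 fell. Genes were called at a Benjamini-Hochberg adjusted p under 0.1 in limma, fitted to log2(normalized count + 1). Of the 13023 genes tested, 61.7% were called, made up of 31.4% higher and 30.3% lower, and in 63.2% the groups did not overlap. The 9 of 10 members called, all 9 without overlap, are to be read against that share. On the scale as deposited, the median difference was 0.30 over the members and −0.00 over all genes tested. The members' median fell between Bax and Mcl1. Both differed in the other direction with libraries rescaled to equal sums (−0.219 and −0.148) and after quantile normalization (−0.118 and −0.483).

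**Figure D1:**
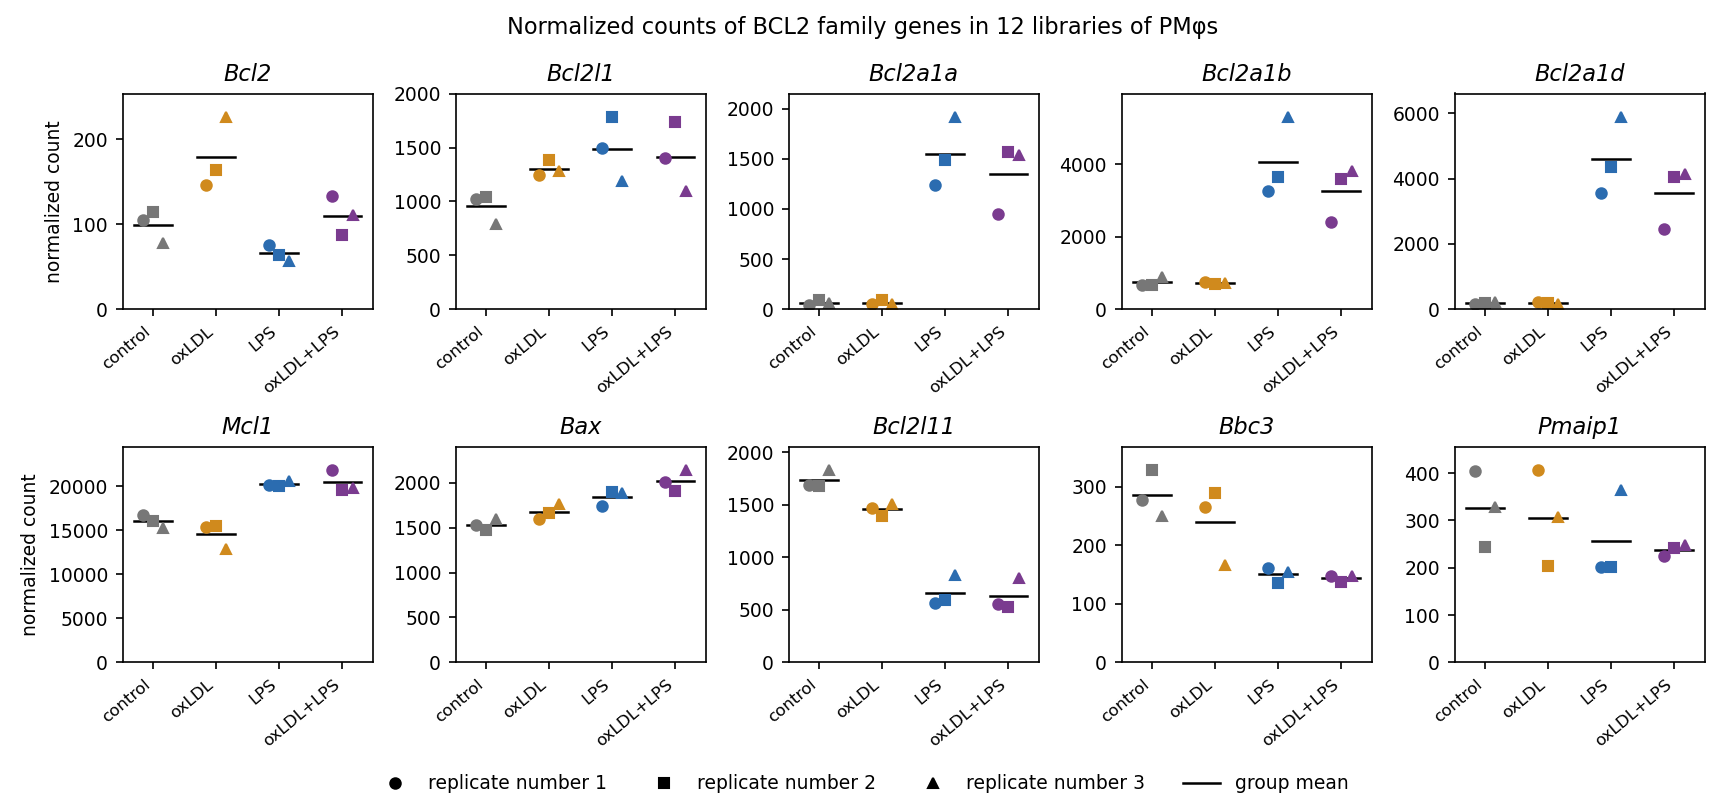
Normalized counts of the 10 genes in each library of control, oxLDL, LPS and oxLDL+LPS PMφs, with each vertical axis starting at 0. Points are single libraries with the shape giving the replicate number, and lines are group means. On this scale the LPS and oxLDL+LPS libraries stand above the others for the A1 genes and Mcl1 and below them for Bcl2l11 and Bbc3, and the Mcl1 difference turns after quantile normalization.

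Bcl2a1a, which lies at chr9:88956900-88962419 on the plus strand, had normalized counts of 40, 88 and 61 in control libraries and 1244, 1492 and 1923 in LPS libraries, numbers 1 to 3 in that order here and below. Its mean went from 63 ± 24.1 (SD, n = 3) to 1553 ± 344 (SD, n = 3), a log2 difference of 4.65 (standard error 0.29, adjusted p = 8.45e-06 from limma). No LPS library came near the control range, and 1.74% of the genes tested rose further.

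Bcl2a1d, at chr9:88723285-88731914 on the minus strand, stood at 164, 191 and 219 in control libraries and at 3572, 4349 and 5900 in LPS libraries. The groups did not overlap. With a log2 difference of 4.56 and a standard error of 0.19 (adjusted p = 1.22e-06, limma), Bcl2a1d was close to Bcl2a1a.

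Bcl2a1b, at chr9:89199209-89207827 on the plus strand, began from a higher level than the other copies. Control libraries had 669, 663 and 885 and LPS libraries 3247, 3658 and 5315. Its log2 difference of 2.44 (standard error 0.20, adjusted p = 3.57e-05 from limma) was smaller than those of the other copies. Taken as 1 row, the 3 copies summed to 993 ± 153 in control libraries and to 10233 ± 2616 in LPS libraries (SD, n = 3 each), a log2 difference of 3.34 (standard error 0.19, adjusted p = 5.66e-06 from limma).

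Within libraries, where no scaling enters, the make-up of the A1 count also differed. Bcl2a1b made up 76.6%, 70.4% and 76.0% of the 3 copies' summed count in control libraries and 40.3%, 38.5% and 40.5% in LPS libraries. Bcl2a1d went from 19.3% ± 0.86 to 45% ± 0.75 and Bcl2a1a from 6.39% ± 2.58 to 15.3% ± 0.56 (SD, n = 3 each). The groups did not overlap for any copy (p = 0.1, exact permutation test, two-sided, which is as low as 3 against 3 libraries can go). The permutation tests here took the libraries as unpaired, although the replicate numbers pair them. Of 32 such tests of shares and ratios within libraries, 20 reached 0.1, and after Benjamini-Hochberg adjustment over the 32 these stood at 0.16. With oxLDL in both arms Bcl2a1b went from 74.3% ± 2.28 to 40.2% ± 1.14 (SD, n = 3 each).

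Markers of other cells were compared because neutrophils are known to express A1. The 7 neutrophil markers summed to between 34 and 38 in control, 31 and 50 in oxLDL, 79 and 179 in LPS, and 129 and 258 in oxLDL+LPS libraries, nearly all of it S100a8, while Ly6g was at 0 in all libraries and S100a9, Ngp, Retnlg, Mpo and Camp did not exceed 10. The 5 T cell markers summed to between 20 and 21 in control and 103 and 239 in LPS libraries, nearly all of it Lck. Among eosinophil markers Prg2 was at 0, and the sum of 4 was 319 to 385 in control and 104 to 125 in LPS libraries. The B cell sum, nearly all of it Cd22, was 1356 to 2170 in control and 657 to 1140 in LPS libraries, and the mast cell sum was between 31 and 109 over all libraries. The part of these cells in the results was not tested.

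**Figure D2:**
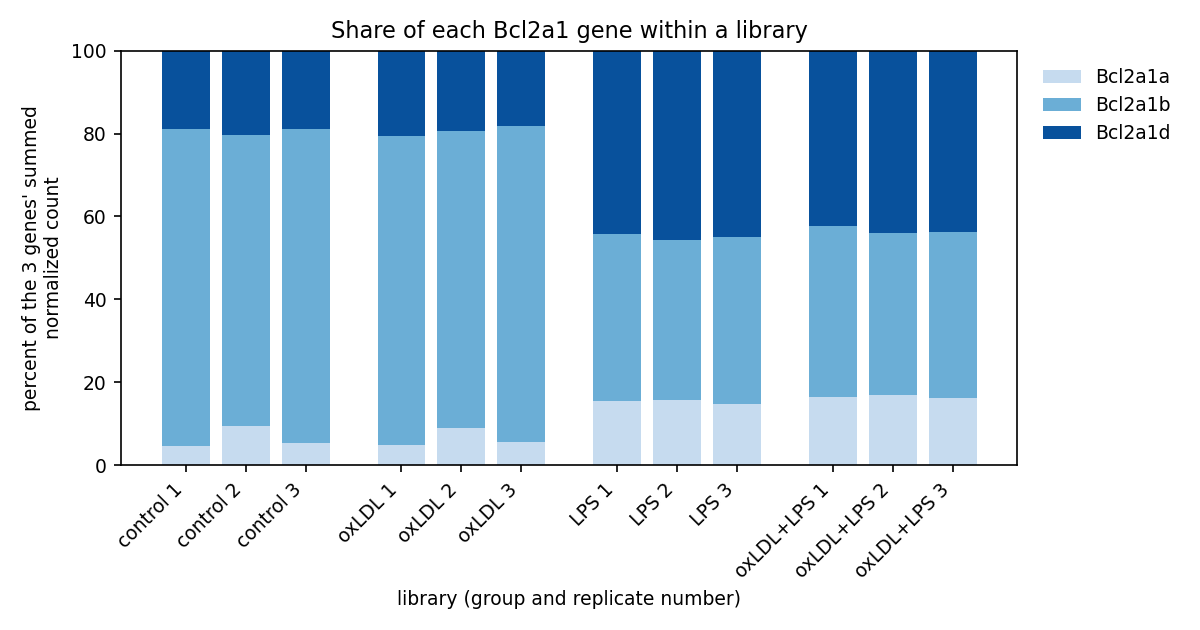
Share of each A1 gene in the summed normalized count of the 3 copies, in percent, with 1 bar per library ordered by group and replicate number. Bcl2a1b holds 70.4% to 76.6% of the bar in the control libraries and 38.5% to 40.5% in the LPS libraries.

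Mcl1, at chr3:95658788-95663176 on the plus strand, encodes the pro-survival protein that binds BIM and NOXA. Its mean per length was the highest of the 10 in every group, but in LPS libraries Mcl1 overlapped Bcl2a1d, which reached 6837 per kilobase against 6021 for Mcl1. Control libraries had 16724, 16101 and 15320 and LPS libraries 20112, 20025 and 20580, a log2 difference of 0.34 (standard error 0.10, adjusted p = 0.0235 from limma). Bax, at chr7:45461697-45466898 on the minus strand, encodes an effector that forms pores in the outer membrane. In the annotation used here, Bax shares 192 exonic bases with Gm45808 on the same strand, a gene not among the symbols counted. Bax had 1532, 1471 and 1599 in control and 1746, 1900 and 1882 in LPS libraries, a log2 difference of 0.26 (standard error 0.08, adjusted p = 0.0287 from limma). For each gene the groups were apart, but both directions depended on the scale. LPS libraries had larger sums, and rescaling all libraries to equal sums put the median difference over all genes at −0.48, with 23.1% of the calls higher in place of 50.9%. On that scale Mcl1 differed by −0.15 (adjusted p = 0.221 from limma) and Bax by −0.22 (adjusted p = 0.0377 from limma). After quantile normalization, with the median of all genes at −0.14 and 40.2% of the calls higher, Mcl1 differed by −0.48 (adjusted p = 0.00470 from limma) and Bax by −0.12 (adjusted p = 0.214 from limma). Leaving out control number 3 gave Mcl1 an adjusted p of 0.109, and leaving out control number 2 gave Bax 0.104, both from limma on the deposited scale.

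Bcl2l1, at chr2:152780668-152831728 on the minus strand, encodes BCL-XL, a pro-survival protein of the mitochondrial membrane. It had 1027, 1044 and 793 in control libraries and 1494, 1788 and 1191 in LPS libraries. Every LPS library was above every control library, by 0.63 on the log2 scale (standard error 0.17, adjusted p = 0.0155 from limma). Its direction held on the other scales but not its call, with 0.15 (adjusted p = 0.534 from limma) at equal sums and 0.35 (adjusted p = 0.129 from limma) after quantile normalization.

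Bcl2, at chr1:106538178-106714274 on the minus strand, is the founding pro-survival gene of the family and was the least abundant of the 10 per length in every group. Control libraries had 105, 114 and 78 and LPS libraries 76, 64 and 57. The groups did not overlap, and the log2 difference was −0.58 (standard error 0.21, adjusted p = 0.0513 from limma). Without control number 1, control number 2 or LPS number 3, the adjusted p from limma was between 0.137 and 0.164. The difference was −1.05 at equal sums (adjusted p = 0.00644 from limma) and −0.38 after quantile normalization (adjusted p = 0.126 from limma). An antisense gene over Bcl2, D630008O14Rik, did not exceed 1.

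Bcl2l11 encodes BIM, the BH3-only protein that binds all pro-survival members, and lies at chr2:128126038-128162547 on the plus strand. Its normalized counts were 1685, 1674 and 1831 in control libraries and 560, 595 and 831 in LPS libraries, a wide gap with no overlap. The log2 difference was −1.41 (standard error 0.15, adjusted p = 0.000161 from limma), and 8.29% of the genes tested fell further.

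Bbc3 encodes PUMA, a BH3-only protein known as a target of p53, and lies at chr7:16308393-16318205 on the plus strand. It had 278, 329 and 250 in control and 161, 136 and 154 in LPS libraries, again without overlap. The log2 difference was −0.92 (standard error 0.15, adjusted p = 0.00135 from limma).

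Pmaip1, on chromosome 18, encodes NOXA, a BH3-only protein that binds MCL1 and A1. It had 405, 244 and 329 in control and 201, 202 and 364 in LPS libraries. The groups overlapped because number 3 was higher with LPS and numbers 1 and 2 were lower, and the log2 difference was −0.38 with a 95% confidence interval from −1.02 to 0.26 (adjusted p = 0.284 from limma). At equal sums it was −0.86 (adjusted p = 0.0186 from limma), and on the deposited scale without LPS number 3 it was −0.66 (adjusted p = 0.0471 from limma).

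Ratios to Bcl2l11 within a library, which no scaling touches, were also higher with LPS, and Bcl2l11 itself was lower. The count of Mcl1 over that of Bcl2l11 was 9.30 ± 0.83 in control and 31.4 ± 5.89 in LPS libraries (SD, n = 3 each), and that of Bcl2a1d over Bcl2l11 was 0.110 ± 0.0116 and 6.93 ± 0.49 (SD, n = 3 each). For Bcl2l1 over Bcl2l11 the ratio was 0.555 ± 0.106 and 2.37 ± 0.83 (SD, n = 3 each). None of these 3 ratios overlapped between the groups (p = 0.1 for each, exact permutation test, the lowest possible). The ratio of Bax to Mcl1 was 0.0958 ± 0.0074 in control and 0.0910 ± 0.0040 in LPS libraries (SD, n = 3 each), with overlap. These are ratios of read counts, not of proteins or of molecules.

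The same question was asked in PMφs that had taken up oxLDL first. These libraries are not shared with LPS against control but carry the same replicate numbers. In oxLDL+LPS against oxLDL, 5 of the 10 genes were higher and 3 lower, whereas 54.5% of the 12900 genes tested were called, 28.2% higher and 26.3% lower, and 57.6% did not overlap. On the scale as deposited, the median difference was 0.18 over the members and −0.02 over all genes tested. The members' median fell between Bcl2l1 and Bax, which both differed in the other direction at equal sums and after quantile normalization. All 3 A1 genes, Mcl1 and Bax were higher, and Bcl2, Bcl2l11 and Bbc3 were lower.

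Bcl2a1a had 48, 87 and 51 in oxLDL and 953, 1565 and 1537 in oxLDL+LPS libraries, a log2 difference of 4.44 (standard error 0.28, adjusted p = 2.00e-05 from limma). Bcl2a1d had 204, 189 and 170 in oxLDL and 2458, 4046 and 4129 in oxLDL+LPS libraries, a log2 difference of 4.2 (standard error 0.20, adjusted p = 5.66e-06 from limma). Bcl2a1b had 745, 703 and 712 in oxLDL and 2401, 3593 and 3799 in oxLDL+LPS libraries, a log2 difference of 2.15 (standard error 0.17, adjusted p = 5.91e-05 from limma). No A1 gene overlapped between these groups, and number 1 was the lowest oxLDL+LPS library for each.

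Bcl2l11 had 1468, 1395 and 1507 in oxLDL and 552, 530 and 801 in oxLDL+LPS libraries, a log2 difference of −1.24 (standard error 0.16, adjusted p = 0.000639 from limma). Bbc3 had 266, 289 and 167 in oxLDL and 148, 137 and 147 in oxLDL+LPS libraries, a log2 difference of −0.70 (standard error 0.22, adjusted p = 0.0319 from limma). Neither BH3-only gene overlapped between these groups. Without oxLDL number 1 or number 2, the adjusted p of Bbc3 from limma was 0.108 or 0.110.

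Bcl2 had 146, 164 and 227 in oxLDL and 133, 87 and 111 in oxLDL+LPS libraries, a log2 difference of −0.69 (standard error 0.23, adjusted p = 0.0419 from limma). Without oxLDL number 3 or oxLDL+LPS number 2 its adjusted p from limma was 0.128 or 0.101. For number 1 the difference was −0.13, against −0.91 and −1.03 for numbers 2 and 3.

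Mcl1 went from 15344, 15542 and 12871 to 21879, 19630 and 19835, a log2 difference of 0.49 (standard error 0.12, adjusted p = 0.0105 from limma), but 0.10 at equal sums and −0.22 after quantile normalization. Bax went from 1595, 1658 and 1765 to 2010, 1908 and 2144, a log2 difference of 0.27 (standard error 0.08, adjusted p = 0.0292 from limma), but −0.12 at equal sums and −0.09 after quantile normalization. The median of all genes stood at −0.41 at equal sums and at −0.13 after quantile normalization, so Bax turned on both scales and Mcl1 after quantile normalization. Without oxLDL number 1 or oxLDL+LPS number 3, the adjusted p of Bax from limma on the deposited scale was 0.107 or 0.102.

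Bcl2l1 did not pass the test in oxLDL-treated PMφs. It had 1243, 1382 and 1283 in oxLDL and 1406, 1742 and 1099 in oxLDL+LPS libraries, and these groups overlapped. The log2 difference was 0.10 with a 95% confidence interval from −0.28 to 0.48 (adjusted p = 0.662 from limma), and it was −0.29 at equal sums and −0.19 after quantile normalization. Pmaip1 had 407, 203 and 307 in oxLDL and 224, 242 and 248 in oxLDL+LPS libraries, also with overlap and with a difference of −0.30 (adjusted p = 0.338 from limma). At equal sums it was −0.69 (adjusted p = 0.0389 from limma), and without oxLDL number 2 it was −0.57 (adjusted p = 0.0382 from limma).

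**Figure D3:**
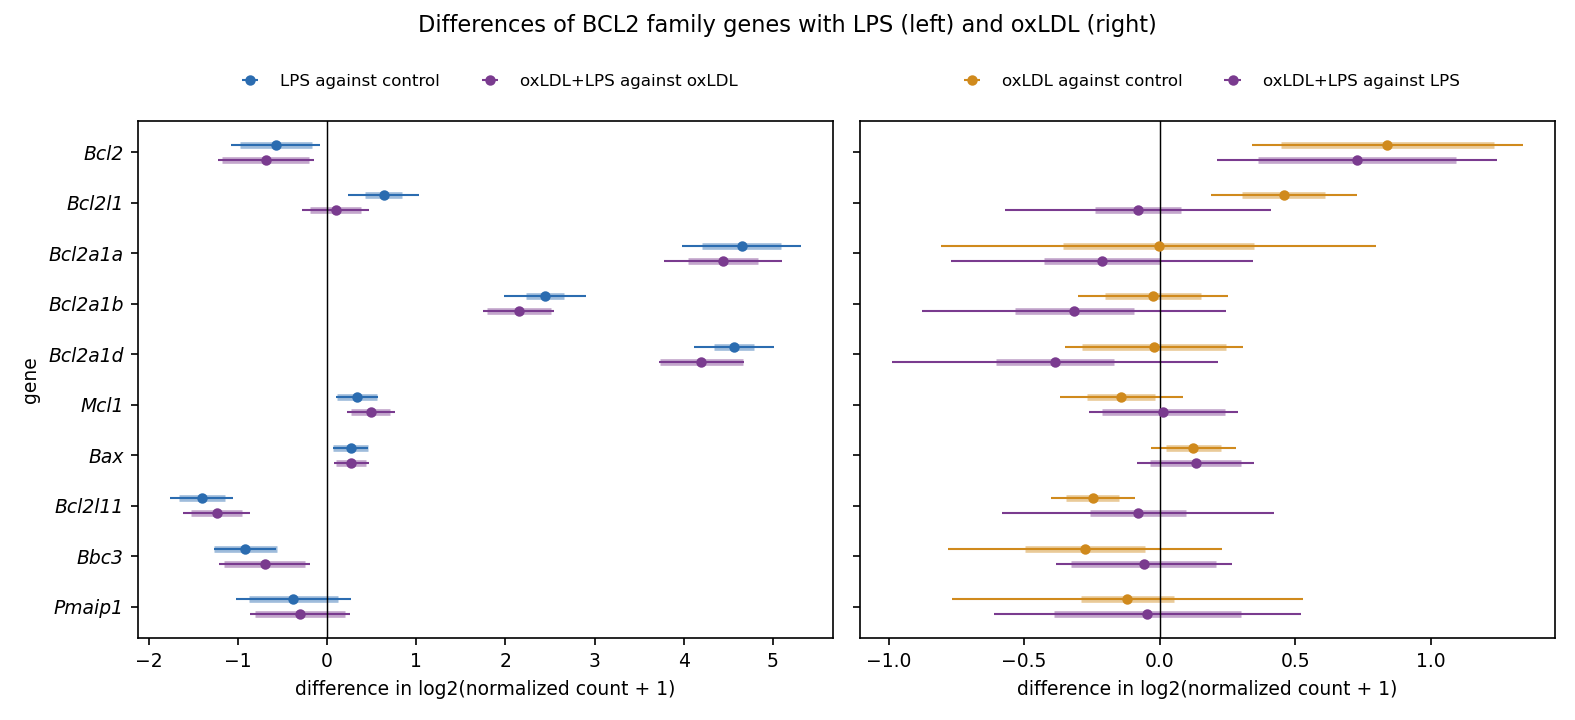
Difference in log2(normalized count + 1) for each gene, with LPS on the left (without and with oxLDL) and with oxLDL on the right (without and with LPS). Points are differences of group means, thin bars are 95% confidence intervals without the replicate block and thick pale bars those with it. On the left the A1 genes lie between 2.15 and 4.65, and on the right Bcl2 lies at 0.84 and 0.73.

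Oxidized LDL alone, in cells without LPS, went with higher Bcl2 and Bcl2l1 and lower Bcl2l11, but only once libraries were matched by replicate number. In oxLDL against control, limma without matching called 0 of the 10 members and 0 of 12751 genes (0%) at the adjusted threshold of 0.1, while 3 members and 381 genes had an unadjusted p under 0.05. The 3 members were Bcl2, Bcl2l1 and Bcl2l11. In these 3 the groups did not overlap, as in 7.7% of all genes tested. The methods describe pools divided among the groups, and libraries with the same number varied together. A second fit therefore took the replicate number as a block. It called 4.71% of the genes tested, 1.8% higher and 2.92% lower. With the block, Bcl2 and Bcl2l1 were higher, Bcl2l11 was lower and 7 members were not called. The median difference was −0.02 over the members and −0.01 over all genes.

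Bcl2 had 105, 114 and 78 in control and 146, 164 and 227 in oxLDL libraries, so that every oxLDL library was higher. The log2 difference was 0.84 (adjusted p = 1.00 from limma without the block, and 0.0335 with it), and by number it was 0.47, 0.52 and 1.53. Bcl2l1 had 1027, 1044 and 793 in control and 1243, 1382 and 1283 in oxLDL libraries. Its log2 difference was 0.46 (adjusted p = 1.00 from limma without the block, and 0.00852 with it), and by number it was 0.28, 0.40 and 0.69. For both genes number 3 moved furthest. The block called both without number 1 and without number 3, with log2 differences of 0.50 for Bcl2 and 0.34 for Bcl2l1 in the latter case.

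Bcl2l11 had 1685, 1674 and 1831 in control and 1468, 1395 and 1507 in oxLDL libraries, a narrow gap without overlap. Its log2 difference was −0.25 (adjusted p = 1.00 from limma without the block, and 0.0174 with it), and the numbers gave −0.20, −0.26 and −0.28. Without number 2, where the block leaves 2 replicate numbers, Bcl2l1 alone was still called (blocked adjusted p = 0.0851 from limma), and Bcl2 and Bcl2l11 had 0.110 and 0.190. The ratio of Bcl2l1 to Bcl2l11 within a library was 0.609, 0.624 and 0.433 in control and 0.847, 0.991 and 0.851 in oxLDL libraries, and that of Bcl2 to Bcl2l11 had means of 0.0577 and 0.123. Neither ratio overlapped between the groups (p = 0.1 for each, exact permutation test, the lowest possible).

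The other 7 members overlapped between control and oxLDL. For the A1 genes the differences were −0.00 for Bcl2a1a, −0.02 for Bcl2a1b and −0.02 for Bcl2a1d, with 95% confidence intervals of −0.81 to 0.80, −0.30 to 0.25 and −0.35 to 0.31. Mcl1 differed by −0.14 and Bax by 0.12. With the block the intervals were −0.27 to −0.02 for Mcl1 and 0.02 to 0.23 for Bax, with blocked adjusted p of 0.241 and 0.205 from limma.

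With LPS present, the unblocked limma fit of oxLDL+LPS against LPS called 0 of 10 members and 0 of 12786 genes (0%), and 1 member, Bcl2, and 890 genes had an unadjusted p under 0.05. With the replicate block, 13.2% of the genes tested were called, 4.42% higher and 8.74% lower, and 3 members were among them. Bcl2 was higher, and Bcl2a1b and Bcl2a1d were lower in oxLDL+LPS. Of all genes tested, 12.6% did not overlap between these groups, and 2 members, Bcl2 and Bax, did not.

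Bcl2 had 76, 64 and 57 in LPS and 133, 87 and 111 in oxLDL+LPS libraries, a log2 difference of 0.73 (adjusted p = 0.698 from limma without the block, and 0.0325 with it). The number-wise differences were 0.80, 0.44 and 0.95. Bcl2 was thus the 1 member called higher with oxLDL in both states when the block was used. These comparisons share no library, but both use the same replicate numbers. Without number 2 the block gave Bcl2 an adjusted p of 0.110 from limma in oxLDL against control. In oxLDL+LPS against LPS the block called 0 members without number 1 and 0 without number 3.

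Bcl2a1d had 3572, 4349 and 5900 in LPS and 2458, 4046 and 4129 in oxLDL+LPS libraries, a log2 difference of −0.39 (adjusted p = 0.778 from limma without the block, and 0.0466 with it). Bcl2a1b differed by −0.32 (adjusted p = 0.806 from limma without the block, and 0.0862 with it). By number, Bcl2a1d differed by −0.54, −0.10 and −0.51 and Bcl2a1b by −0.44, −0.03 and −0.48, so number 2 moved least. These calls needed numbers 1 and 3, since in limma with the block 0 members were called without number 1 and 0 without number 3 (2 each at an unadjusted p under 0.05), and 4 (these 3 and Bcl2a1a) without number 2. With the block at equal sums, Bcl2 was the 1 member called. Within a library, Bcl2a1d made up 45% ± 0.75 of the A1 count in LPS and 43.3% ± 0.88 in oxLDL+LPS libraries (SD, n = 3 each), without overlap (p = 0.1, exact permutation test, the lowest possible).

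Bcl2l11, Bbc3, Mcl1 and Bcl2l1 gave differences between −0.08 and 0.01 in oxLDL+LPS against LPS. Their 95% confidence intervals without the block reached from −0.58 to 0.42 for Bcl2l11 and from −0.26 to 0.29 for Mcl1. Bax differed by 0.13 with an interval from −0.08 to 0.35.

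Whether the oxLDL difference itself depended on LPS was tested as an interaction over all 12 libraries. In limma without a block and with the replicate block, 0 of the 10 members and 0 of 13482 genes (0%) were called, and without the block 0 members and 418 genes had an unadjusted p under 0.05. Bcl2l1 had the interaction furthest from 0 among the members, −0.54 (standard error 0.26, adjusted p = 1.00 from limma without the block and 0.657 with it), with −0.36, −0.44 and −0.81 by number. A further fit, chosen after both of these had called no gene, gave each replicate number a level of its own within each LPS state. It called 1.09% of the genes tested, 0.408% higher and 0.682% lower, and Bcl2l1 was the 1 member among them (standard error 0.11, adjusted p = 0.0683 from limma). This call came from 1 of 3 fits to the same question, the last one chosen, so it does not stand as a test.

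**Figure D4:**
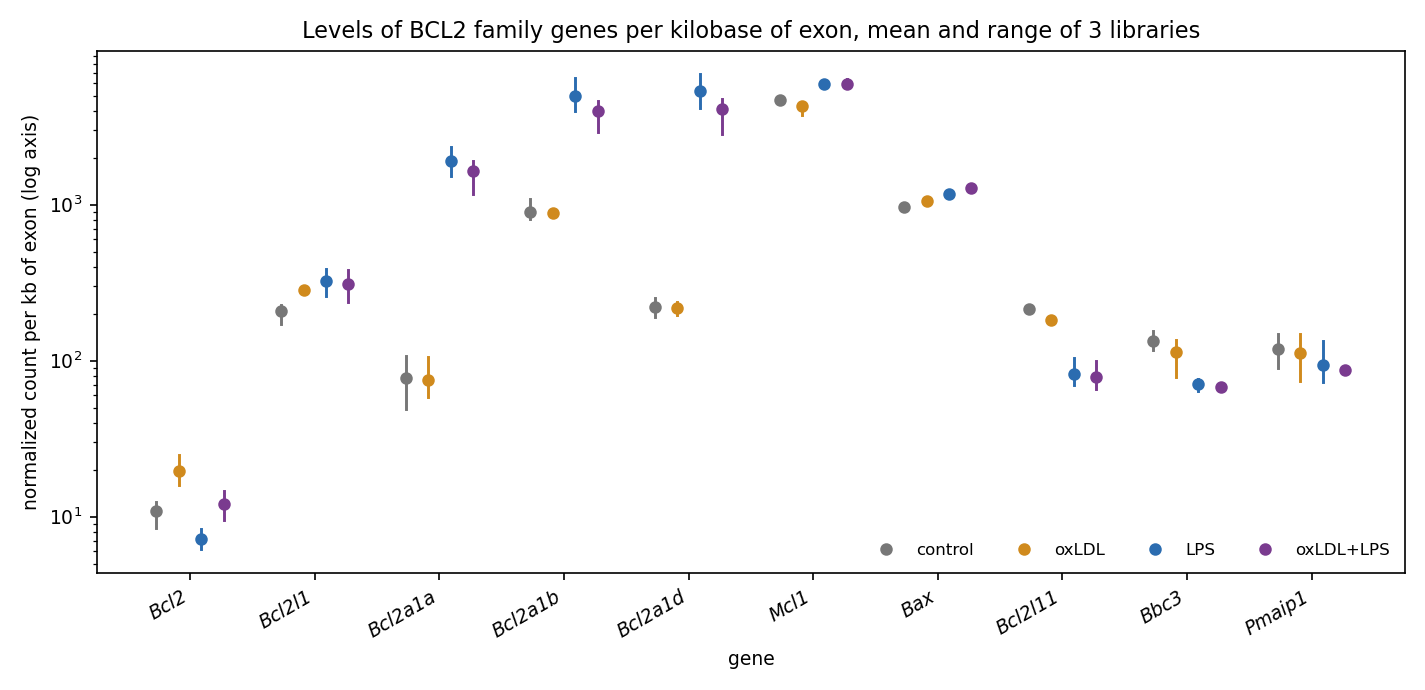
Normalized count per kilobase of exon on a log axis for the 10 genes in the 4 groups, with points for group means and bars from the lowest to the highest of 3 libraries. In the control group the levels run from 10.8 for Bcl2 to 4695 for Mcl1, and with LPS Bcl2a1d and Bcl2a1b reach 5338 and 4986.

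Per kilobase of exon, the order of the family changed with LPS. In control PMφs the levels were 4695 for Mcl1, 973 for Bax, 905 for Bcl2a1b, 222 for Bcl2a1d, 215 for Bcl2l11, 208 for Bcl2l1, 134 for Bbc3, 119 for Pmaip1, 76.9 for Bcl2a1a and 10.8 for Bcl2. Neighbours in that order overlapped for Bax and Bcl2a1b, for Bcl2a1d, Bcl2l11 and Bcl2l1, and for Bbc3, Pmaip1 and Bcl2a1a. In LPS-treated PMφs the levels were 5921 for Mcl1, 5338 for Bcl2a1d, 4986 for Bcl2a1b, 1896 for Bcl2a1a, 1169 for Bax, 325 for Bcl2l1, 93.6 for Pmaip1, 82.5 for Bcl2l11, 70.8 for Bbc3 and 7.17 for Bcl2. There Mcl1, Bcl2a1d and Bcl2a1b overlapped in turn, as did Pmaip1, Bcl2l11 and Bbc3.

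The A1 genes made up 19.7% ± 3.18 of the summed pro-survival level per kilobase in control and 65.5% ± 5.4 in LPS libraries, and Mcl1 76.7% ± 2.71 and 32.6% ± 4.9 (SD, n = 3 each). In oxLDL libraries the A1 share was 20.5% ± 1.11 and in oxLDL+LPS libraries 60.1% ± 8.0 (SD, n = 3 each). These shares carry the uncertainty in the summed A1 count. Exon lengths are those of merged annotated exons, which may differ from the transcripts present. They come from a later GENCODE release than the one the study counted reads on. In oxLDL PMφs the order was that of control, except that Bcl2l1 stood above Bcl2a1d and Bcl2l11 and overlapped neither neighbour.

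The promoters of the 3 A1 genes were searched because these genes moved together. Of the 10 members, 9 matched a RefSeq promoter on GRCm38.p6, from 250 bases before to 50 after the start. The motif GAGGAAGT, read here as a PU.1-type site and searched on both strands, was found in all 3 A1 promoters and in no other member. It was found in 3.2% of 32851 promoters, and in at least 1 promoter of 3.69% of 27025 genes. The copies share ancestry, so they are not 3 separate cases. Capitals mark the match.
Bcl2a1a, chr9:88956776-88956853, plus strand: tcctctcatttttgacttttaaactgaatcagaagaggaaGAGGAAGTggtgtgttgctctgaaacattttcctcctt
Bcl2a1b, chr9:89199085-89199162, plus strand: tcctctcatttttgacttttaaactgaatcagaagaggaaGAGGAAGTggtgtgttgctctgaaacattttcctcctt
Bcl2a1d, chr9:88731917-88731994, minus strand: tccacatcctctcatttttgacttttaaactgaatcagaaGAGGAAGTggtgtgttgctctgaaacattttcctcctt
The FOXO core GTAAACA, also searched on both strands, was found for the BH3-only genes Bcl2l11 and Bbc3 and for none of the other 7, Bcl2 included. Over all genes the share was 4.05%, and over all promoters 3.65%. Capitals mark the match, which for Bbc3 is on the other strand.
Bcl2l11, chr2:128125800-128125828, plus strand: aagacactaggGTAAACAcgccggggtgg
Bbc3, chr7:16310083-16310111, plus strand: tctggcgggttTGTTTACaaacaatgggg
The NF-κB consensus was found for Bcl2l1 and Bbc3 and for no A1 gene within this window, against 9.55% of all genes and 8.46% of all promoters. Bcl2l11 and Bbc3 have more than 1 annotated promoter, and 1 of 2 and 1 of 3 held the FOXO core. These matches are descriptions of the reference sequence, and binding was not measured.

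Of 57 other apoptosis genes listed by hand, 53 could be tested in LPS against control, and 27 were higher and 10 lower. The shares over all genes tested were 31.4% higher and 30.3% lower. Their median difference was 0.36, against −0.00 over all genes, but at equal sums, where 16.7% of all genes were higher and 55.8% lower, 19 were higher and 20 lower. In oxLDL+LPS against oxLDL, 25 of 53 were higher and 8 lower on the deposited scale (28.2% and 26.3% over all genes), and 20 were higher and 19 lower at equal sums (15.8% and 51.7% over all genes, 67.5% in all). Bcl2l10 was at 0 in every library, and Bik, Hrk and Bcl2l14 did not exceed 3.

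**Figure D5:**
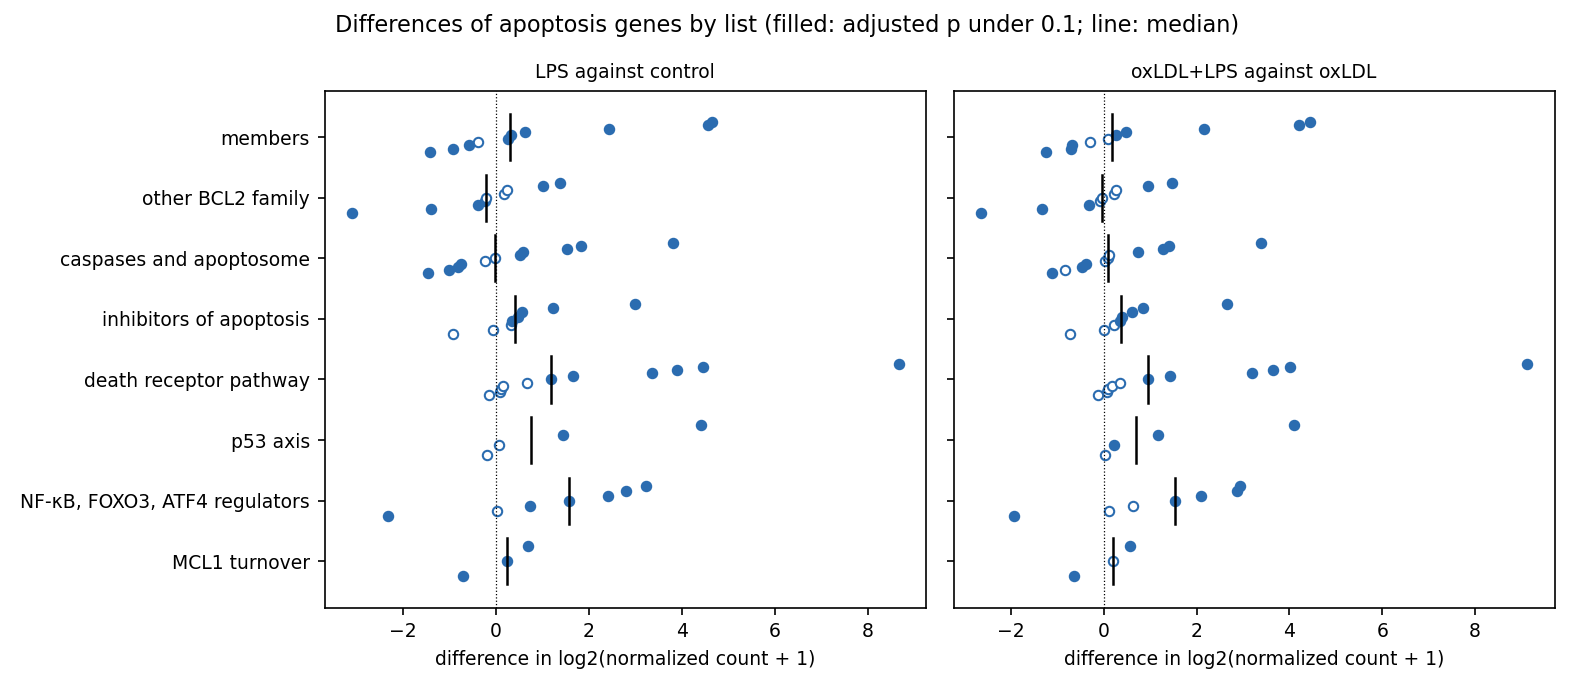
Difference in log2(normalized count + 1) for the 10 members and 53 other apoptosis genes by list, in LPS against control (left) and oxLDL+LPS against oxLDL (right). Filled points had an adjusted p under 0.1, open points did not, and vertical lines are list medians. The lists of the death receptor pathway and of NF-κB, FOXO3 and ATF4 regulators have medians of 1.18 and 1.58 in the left panel on the deposited scale, and of 0.695 and 1.09 at equal sums.

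Among the other BCL2 family genes, 2 of 9 tested were higher and 4 lower with LPS, and the same numbers were called at equal sums, where 8 were tested. The share called over all genes was 61.7% on the deposited scale and 72.6% at equal sums, and the counts of the lists below are to be read against the same shares. Bid, which links death receptors to mitochondria, was between 393 and 429 in control and between 936 and 1356 in LPS libraries (log2 difference 1.38, adjusted p = 0.000189 from limma). The effector Bak1 was also higher, between 1841 and 1992 in control and between 3289 and 4395 in LPS libraries. Bmf, a BH3-only gene, was between 254 and 347 in control and between 20 and 56 in LPS libraries (log2 difference −3.09, adjusted p = 0.000204 from limma). Bnip3l, a mitophagy receptor, was lower too, between 6785 and 7525 in control and between 2538 and 2935 in LPS libraries. The BH3-only genes did not move as 1 group, since Bid rose while Bcl2l11, Bbc3 and Bmf fell.

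In the death receptor list, 6 of 11 genes were higher and 0 lower with LPS, and at equal sums 6 were higher and 4 lower, against 31.4% and 30.3% of all genes on the deposited scale and 16.7% and 55.8% at equal sums. Cflar, which encodes the caspase-8 inhibitor FLIP, was between 1570 and 1767 in control and between 21656 and 28446 in LPS libraries. Mlkl, the executor of necroptosis, was between 215 and 256 in control and between 4228 and 5651 in LPS libraries. The receptor gene Fas was between 56 and 81 in control and between 587 and 826 in LPS libraries, and Casp8 rose by 1.66 on the log2 scale (adjusted p = 5.86e-06 from limma). Pro-survival and pro-death genes of this list thus rose together, and Ripk1, Ripk3, Fadd, Tradd and Tnfrsf10b were not called.

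Of 11 caspase and apoptosome genes, 5 were higher and 4 lower with LPS (61.7% called over all genes), and at equal sums 3 were higher and 6 lower (72.6%). The initiator Casp9 was lower, between 1215 and 1249 in control and between 390 and 482 in LPS libraries. Of 8 inhibitor of apoptosis genes, 5 were higher and 0 lower (31.4% and 30.3% over all genes), but at equal sums 2 were higher and 2 lower (16.7% and 55.8%). Birc3, which ubiquitinates partners in TNF signalling, was higher on each scale, with 436 to 523 in control and 2991 to 4936 in LPS libraries.

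Among the regulators, Nfkb1, Rel, Rela and Relb were higher with LPS on each scale, and Foxo3 was lower, between 2106 and 2732 in control and between 420 and 554 in LPS libraries (log2 difference −2.32, adjusted p = 7.52e-06 from limma). Trp53 was not called on the deposited scale, with 868 to 1105 in control and 907 to 1113 in LPS libraries, and at equal sums its difference was −0.41 (adjusted p = 0.0429 from limma). Its known targets Cdkn1a and Mdm2 were higher on each scale, whereas Bbc3, another, was lower. Ccng1, also a known target, was not called on the deposited scale (−0.19) and was lower at equal sums (−0.67, adjusted p = 0.00442 from limma) and after quantile normalization (−0.65, adjusted p = 0.00373 from limma). Fbxw7, part of a ubiquitin ligase for MCL1, was lower on each scale, and the deubiquitinase Usp9x was higher on the deposited scale but not called at equal sums (adjusted p = 0.187 from limma).

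In oxLDL+LPS against LPS, 0 of these 53 genes were called without the block, and 3 were higher and 13 lower with it. Apaf1 differed by −0.42 (blocked adjusted p = 0.0308 from limma) and Rel by −0.64 (blocked adjusted p = 0.00525 from limma). The share of all genes called with the block was 13.2%. Without number 1 the blocked adjusted p from limma was 0.267 for Apaf1 and 0.0912 for Rel, and without number 3 the block called 0 genes, 1531 having an unadjusted p under 0.05 in limma. In oxLDL against control, 0 of 52 were called without the block, and with it Bid and Tnfrsf1a were higher and Rel and Fbxw7 lower, 4 of 52 where 4.71% of all genes were called. Without number 1 the block called Fbxw7 alone of these 4 (adjusted p = 0.0937 from limma), and without number 2 it called none of them, with the lowest adjusted p from limma at 0.110.

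Over the 12 libraries, with the mean of each replicate number removed, the genes most like Bcl2a1a were Sap30 and Ppp2r5a (Pearson's r = 0.999 for both), and those most like Bcl2a1d were Usb1 and Il15 (r = 0.9995 and 0.9992). For Bcl2a1b they were Axl and Lrrc8c, for Bcl2l11 Ago2 and Cln6, and for Bbc3 Pdlim5 and Smarcal1. For Mcl1 they were Igsf6 and Sptlc1, for Bax Txnrd1 and Hvcn1, and for Pmaip1 Chmp1a and Psenen. Bcl2 was nearest to Bin1 (r = 0.956) and Pkm (r = 0.951), and Bcl2l1 to Myc (r = 0.941) and Pdia6 (r = 0.940). These were the highest of 9437 genes with a mean of at least 100, and the points share their replicate numbers and the LPS contrast.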

How the data were processed

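The members and lists were chosen with earlier results of these data known. Poly(A) libraries were trimmed (Trimmomatic 0.32), mapped to mm10, that is GRCm38, by STAR 2.5.1b, and reads on exons were counted for GENCODE genes by featureCounts. Whether counting used the strand is not given in the sources used here. The deposited signal behaves as whole reads scaled with a single factor in each library and rounded, with factors of 0.708 to 1.31 estimated from the spacing of the values. Reads were not recovered, so no count test was run. A spreadsheet had turned 25 symbols into dates, and those rows were kept among the genes and met the same filter. Adgre1 is in the table under an older symbol.

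Groups were compared with limma 3.58.1 in R 4.3.3 (lmFit, eBayes with a variance trend) on log2 of the value plus 1, over genes at 10 or more in at least 3 of the libraries. A comparison used its own 6 libraries, and the interaction used all 12. p-values were adjusted by Benjamini and Hochberg over all genes tested, and 0.1 was the threshold. The fit without a block was tested on simulated data with independent libraries. That simulation held no effect shared by replicate number, so it does not bear on the blocked calls or on the choice of scale. p-values measure the spread between libraries of pooled cells.

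The labels give the groups the same replicate numbers, and per the study's methods pools were divided among groups. The labels do not say that a number is a pool. Deviations from the group means over 11186 genes had correlations of 0.305 to 0.733 in all 18 same-number pairs, so the numbers pair the libraries. Blocked values are printed where they change a call. Alternatives were other pseudocounts, filters, scalings, no variance trend, A1 rows summed, all 12 libraries and libraries left out. Leaving out a number under the block, the block at equal sums and the block within each LPS state were added after seeing the data. Named genes were the 10 members, called genes and markers of hand-written lists, and for each member the 2 genes with the highest r. Promoter sequences are RefSeq's on GRCm38.p6, and gene positions, exon lengths and coding sequences are from GENCODE on GRCm38, in a later release than that used for counting. Some genes of these lists are not reported here by name.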

Additional observations from a re-analysis of the deposited data

Results flagged for a closer look

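For Bcl2l1, the differences of all 3 replicate numbers had 1 sign with oxLDL alone and the other sign with LPS present, where it did not pass the test. The log2 differences of numbers 1 to 3 were 0.28, 0.40 and 0.69 in oxLDL against control and −0.09, −0.04 and −0.12 in oxLDL+LPS against LPS. The difference between the states was −0.54, with an adjusted p from limma of 1.00 without a block, 0.657 with the replicate block and 0.0683 with a block within each LPS state, which was chosen after the first 2 fits had called no gene. In oxLDL+LPS against LPS the groups overlapped, and at equal sums the difference there was 0.00992.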

How the results depend on the processing

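The 10 members in 5 comparisons gave 1060 values under alternative settings, of which 939 kept their direction and side of the threshold, 23 lost a call, 31 gained one and 67 changed direction. For Bcl2a1a, Bcl2a1b, Bcl2a1d and Bcl2l11, both LPS comparisons kept direction and call under all 20 alternatives. The number of members called in LPS against control was 6 to 9 and in oxLDL+LPS against oxLDL 6 to 9, with 7 to 9 and 6 to 9 when a library or a replicate number was left out. It fell to 7 and 6 with the A1 genes as 1 row, by construction.

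Blocks changed the oxLDL comparisons. In oxLDL against control the replicate block called 3 members, also at equal sums, and 1 to 4 when a number was left out, and without the block 0 were called whichever library was left out. Among LPS-treated cells, oxLDL+LPS against LPS, it called 3, with 1 at equal sums and 0 to 4 when a number was left out, and without the block 0 were called whichever library was left out. With the block, genes called in oxLDL against control numbered 601, and 214, 139 and 1285 without numbers 1, 2 and 3. For oxLDL+LPS against LPS they numbered 1682, and 71, 2945 and 0 (1531 at an unadjusted p under 0.05 in limma). Unblocked, that comparison called 29 genes with all 12 libraries in the fit and 91 without oxLDL+LPS number 2. The interaction called 1 member with the block within each LPS state. The replicate block changed no other member's call. The cause of these changes was not tested.

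With equal sums, alone or with the block, direction changed for Mcl1 (−0.148) and Bax (−0.219) in LPS against control, for Bcl2l1 (−0.294) and Bax (−0.118) in oxLDL+LPS against oxLDL, and for Bcl2l1 (0.00992), Bcl2l11 (0.0101), Bbc3 (0.0307) and Pmaip1 (0.0444) in oxLDL+LPS against LPS. With quantile normalization it changed for Mcl1 (−0.483) and Bax (−0.118) in LPS against control, for Bcl2l1 (−0.187), Mcl1 (−0.221) and Bax (−0.0868) in oxLDL+LPS against oxLDL, and for Bcl2a1a (0.0289) in oxLDL against control.

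With single libraries left out, differences near 0 crossed it. Bcl2l1 ranged from −0.0661 to 0.266 in oxLDL+LPS against oxLDL. For oxLDL against control the ranges were −0.290 to 0.269 for Bcl2a1a, −0.0962 to 0.112 for Bcl2a1b, −0.127 to 0.0801 for Bcl2a1d and −0.353 to 0.147 for Pmaip1. For oxLDL+LPS against LPS they were −0.242 to 0.0895 for Bcl2l1, −0.361 to 0.0212 for Bcl2a1a, −0.0365 to 0.0418 for Mcl1, −0.269 to 0.0949 for Bcl2l11 and −0.189 to 0.238 for Pmaip1. For the interaction they were −0.256 to 0.0713 for Bcl2, −0.482 to 0.0773 for Bcl2a1a, −0.0355 to 0.0485 for Bax, −0.0212 to 0.342 for Bcl2l11, −0.0253 to 0.369 for Bbc3 and −0.192 to 0.357 for Pmaip1.

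With a replicate number left out under the replicate block, Bcl2l1 ranged from −0.0228 to 0.256 in oxLDL+LPS against oxLDL. The blocked ranges in oxLDL against control were −0.135 to 0.120 for Bcl2a1a, −0.115 to 0.120 for Bcl2a1b and −0.189 to 0.149 for Bcl2a1d, those in oxLDL+LPS against LPS were −0.0410 to 0.0464 for Mcl1 and −0.198 to 0.208 for Pmaip1, and those of the interaction were −0.332 to 0.122 for Bcl2, −0.355 to 0.00794 for Bcl2a1a, −0.0605 to 0.0952 for Bax and −0.152 to 0.336 for Pmaip1. Without number 2 Bcl2a1a gave 0.00170 in oxLDL against control, and without number 3 Bax gave −0.0108 in the interaction.

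With 3 libraries a group, the unpaired exact test used here cannot go below 0.1, and it ignores the pairing by replicate number. The split among the A1 copies and their summed count could not be checked against the reads.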
